A study of Mus musculus with 20 samples.

Results

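The genes described here drive cells into S phase, copy the genome and separate the chromosomes. They were named from a list of 49 genes of the cell cycle and mitosis. Each gene was read from 1 probe set, the one with the highest mean among those annotated to that gene symbol alone, and 47 of the 49 had one, of 17097 genes named in all. Ccnb1 and Nuf2 were not analysed here. Ccne2 lay below the filter on low values on every array (mean log2 value 3.29), so 46 genes were tested.

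RNA came from whole fragments of 20 tumours grown in the caecum of C57BL/6J mice and was hybridised to 1 array per tumour. There were 5 lines of organoids (MTO). The parental lines MTO68 and MTO93 and the LiM line MTO140 carry the genotype LAKTP, the parental line MTO54 carries LAKP and the parental line MTO207 carries LAKT, letters that the labels leave unexplained. MTO140 went into the caecum as intact spheroids, while the other lines were transplanted as pieces of tumours first grown under the skin. For each line, 2 tumours came from control mice and 2 from mice given galunisertib, which blocks the kinase of the type I receptor for TGF-beta, at 10 mg 2 times per day by gavage from day 11 until sacrifice at 5 weeks. Since the 4 tumours of a line shared 1 strip of arrays, a difference between lines cannot be told apart from one between strips. Treatment was compared inside strips. In such fragments fewer cells of a type and less RNA per cell cannot be told apart.

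Transcription of these genes follows the cell cycle. E2F factors, freed when cyclin-dependent kinases phosphorylate the RB protein, turn on genes for S phase entry and DNA synthesis. Genes for mitosis follow later, under the MuvB complex with MYBL2 and then FOXM1, which acts through a promoter element called CHR, often near CCAAT boxes that bind NF-Y. TGF-beta is a classical brake on epithelial proliferation, in part through CDK inhibitors such as p15 (Cdkn2b).

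These elements were looked up in RefSeq promoters of GRCm38.p6, from 250 bases before to 50 bases after each gene's start, which were found for 40 of the 49 genes. The CHR element TTTGAA stood on either strand in 18 of 40 promoters (45.0%), against 18.1% of all 27025 promoters of the table. CCAAT was found in 67.5% of the 40 and in 37.9% of all. An E2F element (TTTGGCGC, TTTCCCGC, TTTCGCGC or TTTGCCGC) was found in 15.0% against 2.32%, and CHR together with CCAAT in 40.0% against 7.12%. The 40 promoters were also richer in G and C, with a median of 59.8% against 52.7%. The CHR counts by role are a description with no test. It stood in 0 of 6 promoters of S phase entry genes and 1 of 9 of replication genes, in 2 of 4 of mitotic cyclin, CDK and transcription factor genes, in 6 of 9 of mitotic kinase, checkpoint and APC/C genes, in 7 of 10 of spindle genes, and in both Mki67 and Top2a. E2F elements stood in 4 of the 6 entry promoters. A match describes letters in this window, not a bound site.

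The 150 bases before the start are printed for 6 genes on which the values below turn, to set S phase promoters beside mitotic ones. Capitals mark the elements named above, read on either strand, so that ATTGG is CCAAT on the other strand.
Cdk2 (chr10:128705052-128705201, reverse strand): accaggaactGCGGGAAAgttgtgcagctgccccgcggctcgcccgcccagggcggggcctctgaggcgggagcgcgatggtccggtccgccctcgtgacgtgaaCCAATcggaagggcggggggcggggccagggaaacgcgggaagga
Prim1 (chr10:128015065-128015214, forward strand): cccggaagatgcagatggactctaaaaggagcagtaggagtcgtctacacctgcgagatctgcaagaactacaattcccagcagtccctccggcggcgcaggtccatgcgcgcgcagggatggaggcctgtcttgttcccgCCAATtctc
Rrm2 (chr12:24708104-24708253, forward strand): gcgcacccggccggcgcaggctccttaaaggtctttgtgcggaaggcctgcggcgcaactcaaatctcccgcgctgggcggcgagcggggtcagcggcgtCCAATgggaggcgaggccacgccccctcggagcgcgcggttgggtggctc
Aurka (chr2:172370571-172370720, reverse strand): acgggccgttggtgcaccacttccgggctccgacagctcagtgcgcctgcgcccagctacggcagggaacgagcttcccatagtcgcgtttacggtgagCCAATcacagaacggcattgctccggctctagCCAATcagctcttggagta
Cdk1 (chr10:69352913-69353062, reverse strand): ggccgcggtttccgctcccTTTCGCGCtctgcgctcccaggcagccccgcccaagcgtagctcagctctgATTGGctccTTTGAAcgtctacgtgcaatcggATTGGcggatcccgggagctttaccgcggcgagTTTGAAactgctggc
Mki67 (chr7:135716380-135716529, reverse strand): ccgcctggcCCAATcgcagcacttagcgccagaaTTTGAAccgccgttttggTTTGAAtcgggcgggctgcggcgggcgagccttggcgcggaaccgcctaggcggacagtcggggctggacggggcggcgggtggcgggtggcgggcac

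The Cdk1 stretch holds 2 CHR elements, 2 CCAAT boxes and an E2F element, and that of Mki67 holds 2 CHR elements and a CCAAT box. Cdk2 has an E2F element and a CCAAT box in this stretch, while in Prim1, Rrm2 and Aurka the only capitals are CCAAT boxes. The Aurka promoter also holds a CHR element, after the start and so outside the printed stretch.

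All values below are log2 RMA values as deposited. Array medians lay between 4.93 and 5.12. The SD over all values of an array, here called the array spread, ranged from 1.46 to 1.83. Its mean by line was lowest in MTO207 (1.51) and MTO93 (1.55), then 1.64 for MTO54, 1.72 for MTO68 and 1.74 for MTO140. Markers of the labelled tissue were present. The mean of 11 epithelial genes lay between 9.06 and 10.54 in every tumour, and that of 8 gut epithelial genes between 6.47 and 10.25. Fibroblast genes had means from 6.46 to 8.26.

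Mean levels of the 46 tested genes ran from 4.20 for Cdc6, a loader of the replicative helicase, to 9.58 for Pcna, the sliding clamp of DNA polymerase. Their median was 6.53, with 17 genes above 7 and 5 below 5. These are probe set values, so they do not rank the genes against each other. Over 20 tumours the SD of a gene ranged from 0.11 to 0.71, with a median of 0.34 against 0.31 for all 15556 genes tested. Rrm2, a subunit of the ribonucleotide reductase that makes deoxynucleotides, had the largest SD of the 46.

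**Figure D1:**
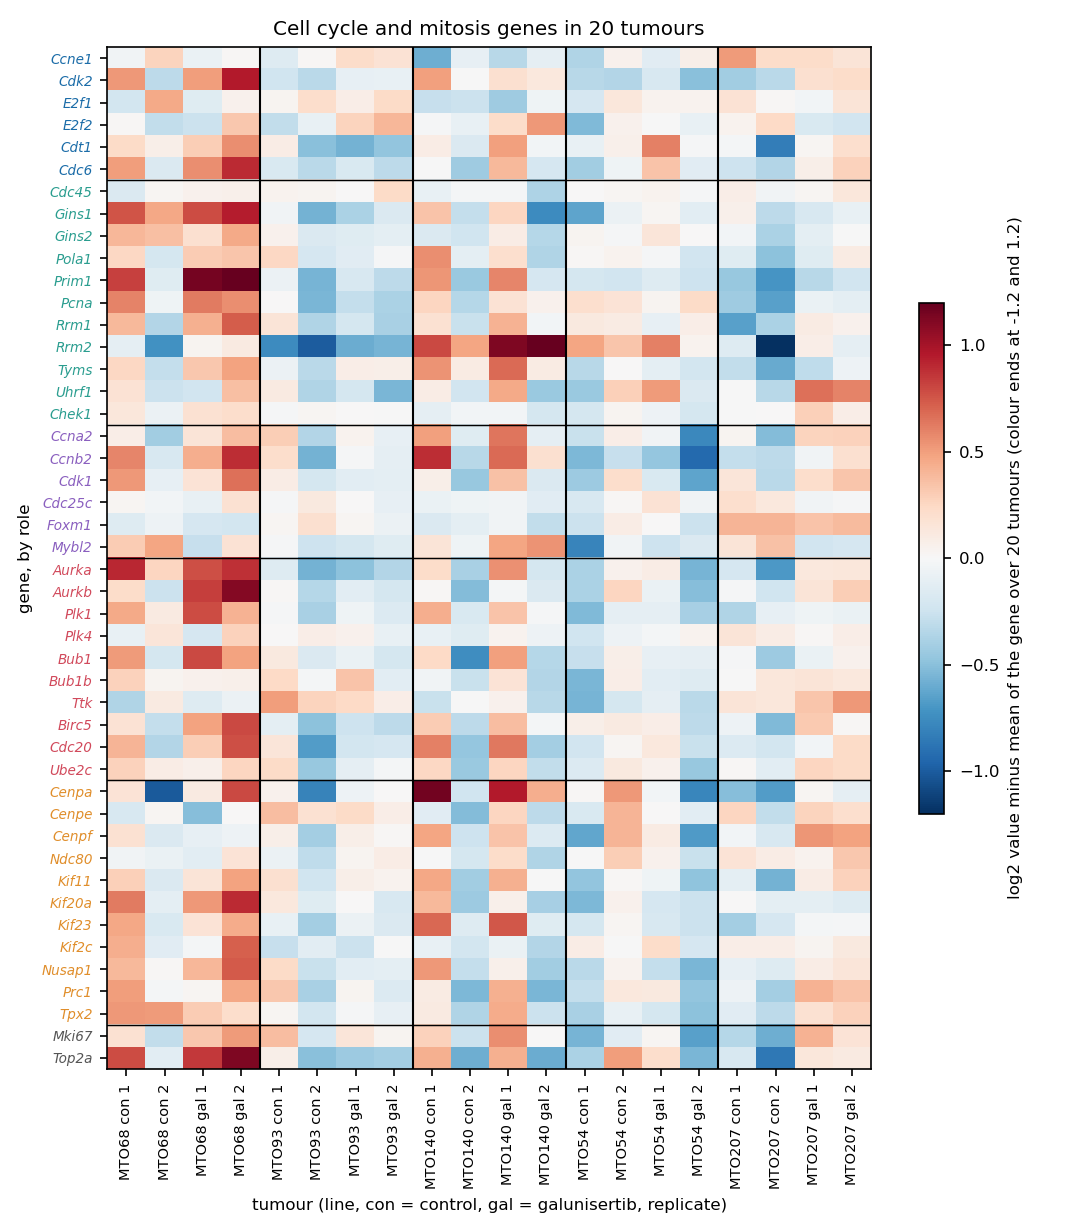
Log2 values of the 46 tested genes (rows, by role) in 20 tumours (columns, by line), each minus the mean of that gene over the 20 tumours. MTO68 control replicate 1 and both treated MTO68 tumours are red over most rows, and Rrm2 is red in all 4 MTO140 tumours.

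A score per tumour was taken as the mean over the 46 genes of the centred log2 value. In MTO68 it was 0.28 and -0.08 in the control tumours and 0.23 and 0.48 in the treated ones. In MTO93 it was 0.04 and -0.28 in control and -0.08 and -0.12 in treated tumours, and in MTO140 it was 0.22 and -0.25 in control and 0.31 and -0.14 in treated tumours. MTO54 gave -0.27 and 0.07 in control and 0.01 and -0.29 in treated tumours, and MTO207 gave -0.07 and -0.28 in control and 0.09 and 0.13 in treated tumours. In MTO140 and MTO54 the 2 tumours of each group lay on opposite sides of 0, and the ranges of all lines overlapped.

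Between replicates most of the 46 genes differed in the same direction. The 2 tumours of a group differed in score by 0.04 to 0.47, with a median of 0.31. In 8 of the 10 groups more than 35 of the 46 genes lay on the same side, such as 41 of 46 in the treated MTO140 tumours, where spindle genes differed by 0.58 and replication genes by 0.46. The higher tumour was picked by the mean of these same genes, so a majority on its side is partly built in. The share of all genes on that side was not counted. The tumour with the higher score had the larger array spread in 6 of 10 groups, the higher epithelial score in 6 and the higher fibroblast score in 5. In the treated MTO140 pair the array spread was 1.74 in the higher and 1.72 in the lower tumour. In the MTO68 control pair it was 1.76 and 1.47, and the tumour with the higher score was also higher in the epithelial score, by 0.96, and in the fibroblast score, by 1.23.

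**Figure D2:**
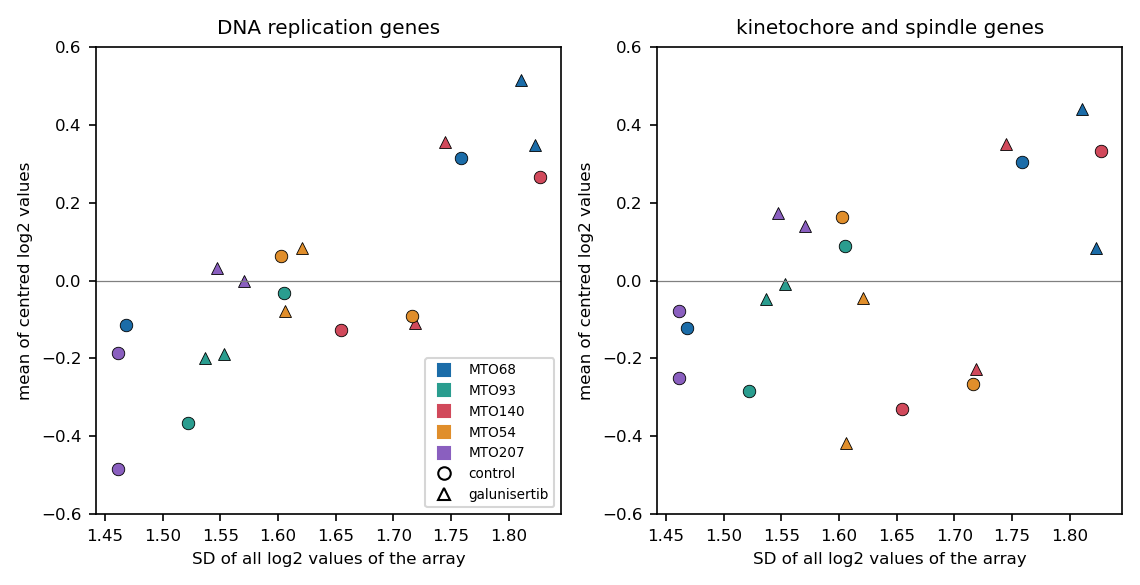
Score of the replication genes (left) and of the spindle and kinetochore genes (right), each the mean of centred log2 values, against the SD of all log2 values of the same array, with 1 point per tumour. The tumours of lowest spread (MTO207 controls, 1.46) lie below 0 in both panels, while the treated MTO140 tumours, of spread 1.74 and 1.72, lie on opposite sides of 0.

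The first comparison asked whether galunisertib moved these genes in the tumours. Over the 5 lines no gene passed limma's test at an adjusted p of 0.05 (0 of 46, and 0% of all 15556 genes), and 4 of 46 had an unadjusted p under 0.05 (8.7%), against 7.96% of all genes. Values lay above control for 41 of 46 genes, against 50.3% of all genes, and the median difference was 0.12 on the log2 scale, against 0.001 for all genes. Because most of the 46 genes moved the same way between replicates, counts of signs here and below are not counts of independent genes. The score averaged -0.06 (SD 0.21) in control and 0.06 (SD 0.23) in treated tumours, and the array spread averaged 1.61 and 1.65. For all 46 genes the ranges of the 10 control and 10 treated tumours overlapped, and the share of all genes that did so was not counted. With the epithelial score as a covariate the median was 0.01 with 27 of 46 above control, and with the array spread as a covariate it was 0.06 with 39 above. After quantile normalization it was 0.05 with 35 above. It was 0.08 without MTO140 control replicate 2 and 0.07 without MTO140 galunisertib replicate 1 or without MTO207 control replicate 2, and 0.05 without the line MTO207.

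Of the S phase entry genes 5 of 6 lay above control, with a median of 0.20. Cdc6 ran from 3.77 through a median of 3.98 to 4.70 in control tumours and from 3.88 through 4.37 to 5.09 in treated ones. The ranges overlapped, and the level is low, with only 8 of the 20 arrays above the filter of 4.16. The difference was 0.34 (SE 0.11, limma adjusted p = 0.364), with a positive sign in 5 of 5 lines. Cdk2, the kinase partner of cyclin E, had medians of 5.50 in control and 5.98 in treated tumours within overlapping ranges of 5.40 to 6.34 and 5.32 to 6.77. Its difference was 0.26 (SE 0.12, limma adjusted p = 0.621). With the array spread as a covariate it was 0.14, with the epithelial covariate 0.02. For Cdc6 the latter gave 0.16. Ccne1, which encodes cyclin E1, stood at 0.04 (SE 0.09) and the transcription factor gene E2f1 at -0.01 (SE 0.09).

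All 11 replication genes lay above control, with a median of 0.16, and 10 did after quantile normalization. With the epithelial covariate Pola1 (-0.13), Rrm1 (-0.02) and Chek1 (-0.01) lay below control and the others above it. Rrm2 ran from 6.23 through 7.52 to 8.44 in control and from 7.05 through 7.71 to 9.02 in treated tumours. These ranges overlapped over most of their length. Its difference within lines was 0.42 (SE 0.15, limma adjusted p = 0.486), positive in 4 of 5 lines and -0.08 in MTO54. Prim1, the catalytic subunit of the primase that starts each DNA strand, stood at 0.29 (SE 0.16), with 0.94 in MTO68 and 0.02 in MTO54. It was 0.18 without MTO68 control replicate 2, 0.13 without the line MTO68 or with the array spread as a covariate, and 0.05 with the epithelial covariate. Pcna had a difference of 0.16 (SE 0.11).

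The cyclin, CDK and transcription factor genes of mitosis were divided, with 3 of 6 above control and a median of 0.04. Cdk1, the kinase that starts mitosis, ran from 7.91 through 8.36 to 8.89 in control and from 7.73 through 8.39 to 9.03 in treated tumours. The treated range thus enclosed the control range, and the difference was 0.10 (SE 0.14). Foxm1 was the only member with a negative sign in 5 of 5 lines, at -0.07 (SE 0.07), and Mybl2 stood at -0.06 (SE 0.12). All 10 mitotic kinase, checkpoint and APC/C genes lay above control, with a median of 0.16 and the highest value, 0.25, in Aurkb, the kinase of the chromosomal passenger complex. After quantile normalization 8 of these 10 lay above control. With the epithelial covariate Ube2c (-0.07), Cdc20 (-0.04) and Bub1b (-0.02) lay below control, and the others lay above it by at most 0.09, in Ttk. Of the spindle and kinetochore genes 10 of 11 lay above control, with a median of 0.07, but 4 of 11 did with the epithelial covariate. The 6 mitotic cyclin, CDK and transcription factor genes had a median of -0.02 after quantile normalization.

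Mki67, whose protein marks cycling cells and coats mitotic chromosomes, ran from 7.23 through 7.58 to 8.18 in control and from 7.16 through 7.97 to 8.37 in treated tumours. The lowest treated tumour, MTO54 galunisertib replicate 2, lay below all controls. The difference was 0.31 (SE 0.14, limma adjusted p = 0.616), with a positive sign in 5 of 5 lines that ranged from 0.01 in MTO93 to 0.76 in MTO207. It was 0.10 with the epithelial covariate, and 0.20 after quantile normalization or without the line MTO207. Top2a, the topoisomerase that untangles sister chromosomes, had medians of 5.89 in control and 6.16 in treated tumours, and its range of 5.45 to 7.16 in treated tumours overlapped that of 5.19 to 6.82 in controls. Its difference was 0.17 (SE 0.20), positive in 2 of 5 lines. In all, 5 genes (Cdc6, Prim1, Plk1, Cdc20 and Mki67) had a positive sign in 5 of 5 lines, which is 10.9% of the 46 against 3.75% of all genes.

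**Figure D3:**
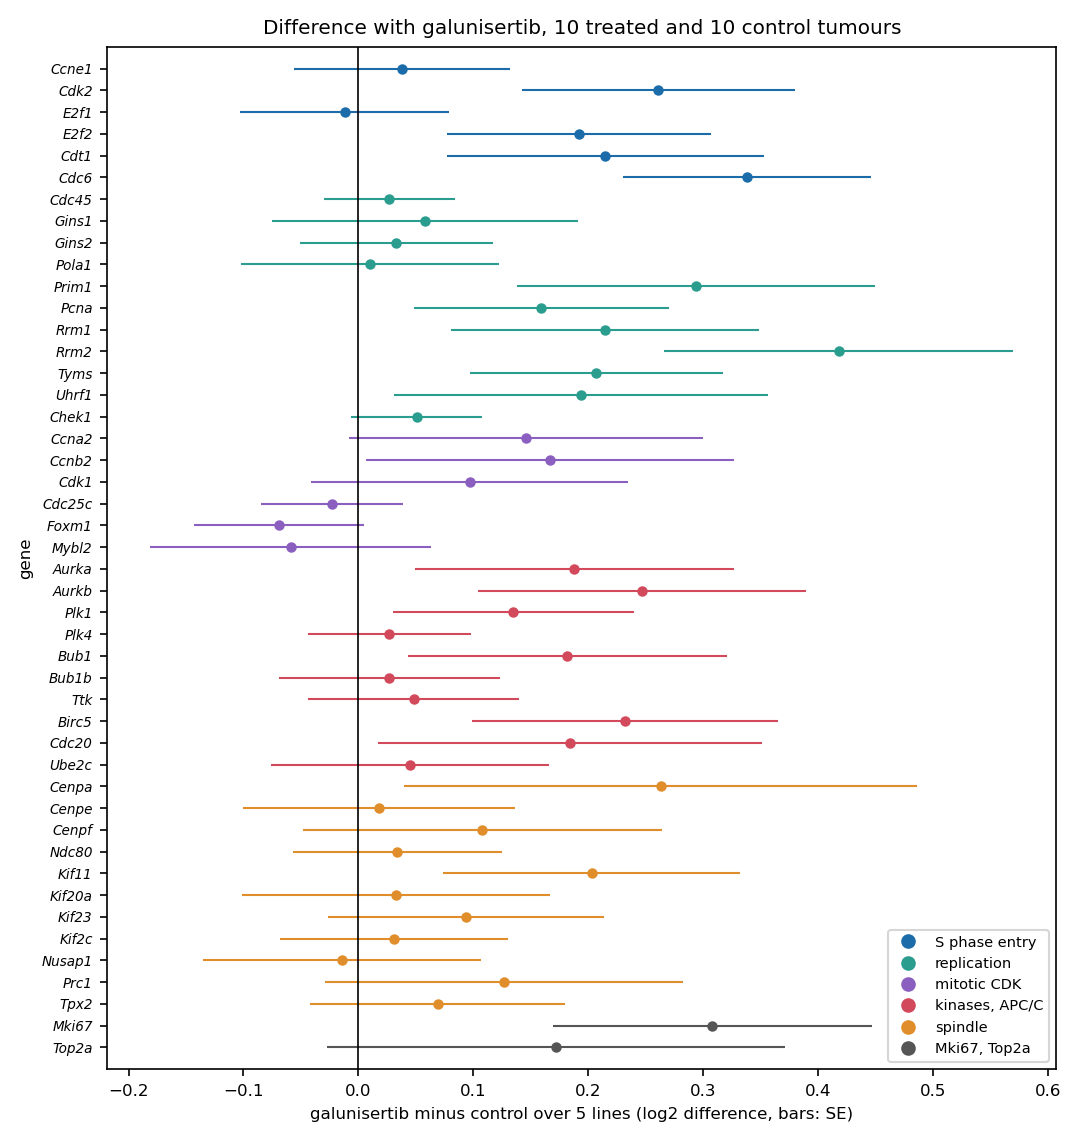
Difference between galunisertib and control over 5 lines for each of the 46 genes (points, log2, bars are the SE), coloured by role. Most points lie to the right of 0 with bars of similar length to the difference, and Rrm2 at 0.42 lies farthest to the right.

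Within single lines the differences were uneven. Their median over the 46 genes was 0.29 for MTO207 (36 above control), 0.25 for MTO68 (36), 0.09 for MTO140 (33), 0.001 for MTO93 (25) and -0.04 for MTO54 (19). None of the 46 passed limma's test in any line, where 2.01% of all genes passed for MTO68, 0.00643% for MTO140 and 0% for each of MTO93, MTO54 and MTO207. Unadjusted p-values under 0.05 were found for 5 of the 46 with MTO207 (7.53% of all genes), 5 with MTO68 (33.0%), 0 with MTO140 (3.63%), 1 with MTO93 (1.09%) and 0 with MTO54 (2.85%). The test of a different effect between lines called none of the 46 either, with 2 at an unadjusted p under 0.05, and 0.0643% of all genes passed it.

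In MTO207 both treated tumours had a higher score than both controls (means 0.11 and -0.17), and so did the replication and spindle scores. The array spread moved the same way there, from 1.46 in both controls to 1.55 and 1.57 in the treated tumours, as did the epithelial score, by 0.56. In MTO68 the spread was 1.76 and 1.47 in controls and 1.82 and 1.81 in treated tumours, and the epithelial score differed by 0.53. The MTO68 median was -0.03 with the array spread as a covariate and -0.01 after quantile normalization. Without MTO68 control replicate 1 it was 0.49, and without control replicate 2 it was 0.08. Without either MTO140 control tumour 1 gene was called in MTO68. In MTO207 the median was 0.13 with the array spread as a covariate and 0.08 with the epithelial covariate, which gave 0.07 in MTO68.

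The sign of the other medians turned with single tumours. In MTO140 the median was 0.42 without control replicate 1 and 0.36 without galunisertib replicate 2, but -0.11 without control replicate 2 and -0.13 without galunisertib replicate 1. In MTO93 it was 0.15 without control replicate 1 and -0.17 without control replicate 2. In MTO54 it was 0.13 or 0.08 without control or galunisertib replicate 2, and -0.17 or -0.16 without control or galunisertib replicate 1. With the epithelial covariate the MTO140 median was 0.005, and with the array spread as a covariate that of MTO54 was 0.03.

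Fibroblast genes lay lower in treated tumours in each line, with 11 of 11 below control over the 5 lines, a median of -0.60 and mean levels of the 12 listed genes of 6.71 to 8.26 in control and 6.46 to 7.37 in treated tumours. Epithelial genes lay above control in 11 of 11, with a median of 0.24 and mean levels of 9.06 to 10.49 in control and 9.57 to 10.54 in treated tumours. No gene of either list passed the test.

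The second comparison was between the 5 lines, each taken as the mean of its control and treated tumours. Here 17 of 46 genes passed limma's F test (37.0%), against 55.4% of all genes. They were Ccne1, Cdk2 and Cdc6 among 6 entry genes, Gins1, Gins2, Prim1, Pcna, Rrm2 and Tyms among 11 replication genes, Ccnb2, Foxm1 and Mybl2 among 6 mitotic cyclin, CDK and transcription factor genes, and Aurka, Aurkb, Plk1 and Ttk among 10 kinase, checkpoint and APC/C genes. Of 11 spindle genes only Tpx2 passed, and neither Mki67 nor Top2a did. With the array spread as a covariate 10 of the same genes passed, and in control tumours alone only Rrm2 did. The share of all genes passing under these settings, or with single tumours left out, is not reported here. The drop in calls is therefore not a result about these genes. The count was 10 without MTO68 galunisertib replicate 2, and 11 without MTO93 or MTO54 galunisertib replicate 2.

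Rrm2 rose in MTO140 and MTO54 relative to the parental LAKTP lines. Its values were 7.54, 6.92, 7.68 and 7.75 in MTO68, with the 2 controls first, and 6.89, 6.65, 7.05 and 7.09 in MTO93. In MTO140 they were 8.44, 8.12, 8.77 and 9.02, in MTO54 8.12, 7.98, 8.26 and 7.69, and in MTO207 7.50, 6.23, 7.73 and 7.54. All 4 MTO140 tumours lay above every MTO68, MTO93 and MTO207 tumour, while the lowest MTO54 tumour lay within the MTO68 range.

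Relative to the mean of MTO68 and MTO93, Rrm2 was higher by 1.39 in MTO140 (SE 0.21, limma adjusted p = 0.00107) and by 0.81 in MTO54 (SE 0.21, limma adjusted p = 0.0342). A second Rrm2 probe set gave 1.26 and 0.61. It was the only one of the 46 genes called in either contrast, where 13.5% of all genes passed for MTO140 and 5.84% for MTO54. The MTO140 call passed in 29 of 31 alternatives (adjusted p from 3.89e-04 to 0.0744). The exceptions were the epithelial covariate, where the difference was 1.19, and control tumours alone, where it was 1.28. The MTO54 call passed in 17 of 31 (adjusted p from 0.00982 to 0.159), and omitting any single MTO54 or MTO93 tumour, MTO68 galunisertib replicate 1 or either treated MTO207 tumour ended it. Epithelial markers were higher in MTO140, with mean levels of 10.04 to 10.54 against 9.11 to 10.18 in MTO68 and 9.66 to 9.74 in MTO93.

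In MTO140 28 of 46 genes lay lower than in the parental LAKTP lines, with a median of -0.09 against -0.05 for all genes, and 37 did after quantile normalization. The median was -0.26 with the epithelial covariate, where 41 lay lower, and -0.17 with the array spread as a covariate. It was 0.02 without MTO140 control replicate 2 or galunisertib replicate 2, with 27 of 46 higher, -0.16 without MTO140 control replicate 1, -0.19 without MTO140 galunisertib replicate 1, and -0.06 without MTO68 control replicate 1. After Rrm2 the smallest p-values in that contrast were those of Ccne1, at -0.33 (SE 0.13, limma adjusted p = 0.101), and E2f1, at -0.34 (SE 0.14, limma adjusted p = 0.111). With the epithelial covariate both stood at -0.06, and with the array spread as a covariate at -0.15 and -0.14. In MTO54 38 of 46 lay lower, with a median of -0.16 against -0.01, and all 10 kinase, checkpoint and APC/C genes and all 6 mitotic cyclin, CDK and transcription factor genes were among them. After quantile normalization 9 of the 10 and 5 of the 6 lay lower. The median was -0.10 without MTO54 control replicate 1 or galunisertib replicate 2, -0.28 without MTO54 control replicate 2 and -0.26 without MTO54 galunisertib replicate 1. Tpx2, which nucleates spindle microtubules and activates Aurora A, stood at -0.45 (SE 0.14, limma adjusted p = 0.0907), and Ccnb2, a cyclin of mitosis, at -0.71 (SE 0.23, limma adjusted p = 0.0941). Ccnb2 was 5.57, 5.83, 5.64 and 5.17 in MTO54, with the controls first, where 7 of the 8 MTO68 and MTO93 tumours lay above all 4 of these. The exception was MTO93 control replicate 2 at 5.54. The counts of calls moved with the covariates and with single tumours, and the share of all genes called under these settings is not reported here. In MTO54 8 genes were called with the array spread as a covariate, among them Tpx2 (limma adjusted p = 0.0363) and Ccnb2 (limma adjusted p = 0.0142), and 4 with the epithelial covariate. In MTO140 4 genes were called without MTO68 control replicate 1 and 3 without MTO140 control replicate 2. In MTO54 3 were called without MTO68 control replicate 2, and 2 without MTO68 control replicate 1 or without either MTO140 control tumour.

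Foxm1 rose in MTO207, the LAKT line. It was 7.62, 7.62, 7.55 and 7.59 there, and 7.06, 7.15, 7.02 and 6.99 in MTO68, and 7.24, 7.40, 7.24 and 7.14 in MTO93. The tumours of MTO140 lay between 6.92 and 7.17 and those of MTO54 between 6.95 and 7.30, so that no tumour of another line reached the MTO207 range. The difference from the parental LAKTP lines was 0.44 (SE 0.11, limma adjusted p = 0.0317), and 7.93% of all genes passed in this contrast. The other tested Foxm1 probe sets gave 0.36 and 0.26, and the one used is of a type that may cross-hybridise. The call passed in 17 of 31 alternatives (adjusted p from 0.00709 to 0.223), and omitting any MTO207 tumour, MTO68 galunisertib replicate 1, MTO93 control replicate 1 or either treated MTO93 tumour ended it. It was also lost with the array spread as a covariate, where the difference was 0.37, with the epithelial covariate (0.44), with median centring (0.38), with the probe set of largest SD (0.36), with the mean of probe sets (0.28) and in control tumours alone (0.41). After quantile normalization the difference was 0.73 and passed.

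Foxm1 was the only one of the 46 called in MTO207, where 30 of 46 lay lower, with a median of -0.09 against 0.003 for all genes. After quantile normalization the median was 0.06, with 27 higher, and after median centring it was -0.15, with 39 lower. With the array spread as a covariate, whose mean was lowest in MTO207, it was 0.06 with 32 higher, and with the epithelial covariate 0.006 with 23 higher. Omitting 1 tumour gave medians from -0.17, without MTO207 control replicate 1, to -0.05, without MTO68 galunisertib replicate 2, MTO93 control replicate 1 or MTO207 control replicate 2. Prim1 stood at -0.69 (SE 0.21, limma adjusted p = 0.0528) and Pcna at -0.38 (SE 0.16, limma adjusted p = 0.105) in that contrast. With the array spread as a covariate they stood at -0.22 and -0.06, and Pcna at -0.11 after quantile normalization. Without MTO68 control replicate 2 the count was 5, and without either MTO140 control tumour it was 2.

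**Figure D4:**
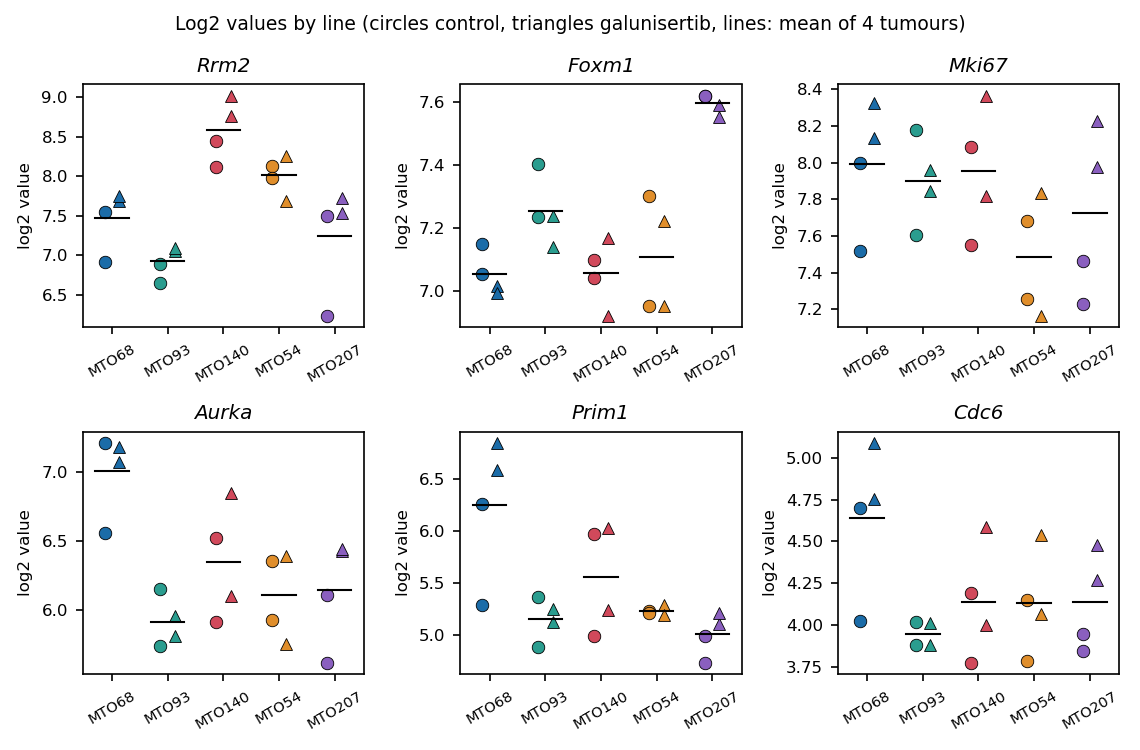
Log2 values of 6 genes in each tumour (circles control, triangles galunisertib) by line, with the mean of 4 tumours as a bar, each panel on its own axis. Rrm2 is high in MTO140 and MTO54 and Foxm1 in MTO207, while Aurka, Prim1 and Cdc6 are highest in MTO68 and Mki67 overlaps between all lines.

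The third comparison was between the parental lines of the genotype LAKTP. Between MTO93 and MTO68 13 of 46 genes passed (28.3%), all lower in MTO93, against 33.4% of all genes in either direction and 20.6% that were lower. In all, 38 of 46 lay lower in MTO93, with a median of -0.36 against -0.03 for all genes. Those called were Cdk2, Cdt1 and Cdc6 of the entry genes, Gins1, Gins2, Prim1 and Pcna of the replication genes, Aurka, Aurkb, Plk1 and Birc5 of the mitotic kinases and their partners, Tpx2, and Top2a. The Cdc6 call again compares values near the filter, which only 8 of the 20 arrays exceeded. Of the 13, 10 were also among the 17 that passed between lines. That overlap is largely built in, since the F test between lines includes the difference between MTO93 and MTO68 in the same tumours.

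Aurka, the Aurora A kinase of spindle poles, was 7.21, 6.56, 7.07 and 7.18 in MTO68 and 6.15, 5.74, 5.81 and 5.95 in MTO93, with the 2 controls first. The lines did not overlap, and Aurka fell by 1.09 (SE 0.23, limma adjusted p = 0.00442) in MTO93. Gins1, part of the replicative helicase complex, was 6.56, 6.28, 6.59 and 6.76 in MTO68 and 5.78, 5.25, 5.43 and 5.64 in MTO93, again without overlap, and fell by 1.03 (SE 0.22, limma adjusted p = 0.00536). Prim1 was 6.26, 5.29, 6.58 and 6.84 in MTO68 and 5.37, 4.89, 5.25 and 5.13 in MTO93. Here MTO68 control replicate 2 lay within the MTO93 range, and the difference was -1.09 (SE 0.24, limma adjusted p = 0.00603). A second Prim1 probe set gave -0.44.

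Pcna fell by 0.73 (SE 0.18, limma adjusted p = 0.00982), from 10.17, 9.52, 10.20 and 10.13 in MTO68 to 9.59, 9.03, 9.29 and 9.19 in MTO93. MTO68 control replicate 2 lay below the highest MTO93 tumour, and the call was lost without MTO93 control replicate 2. It was -0.46 after quantile normalization and -0.32 with the array spread as a covariate. Mki67 stood at -0.10 (SE 0.22) but at 0.21 with the array spread as a covariate and 0.31 after quantile normalization. Top2a fell by 0.97 (SE 0.31, limma adjusted p = 0.0304), while its second tested probe set, at a level near the filter, gave 0.15. The Top2a call was lost without MTO68 control replicate 1, MTO93 control replicate 2 or any treated tumour of either line. Ttk, a spindle checkpoint kinase, lay the other way at 0.39 (SE 0.15, limma adjusted p = 0.0532), and was 0.16 with the array spread as a covariate and 0.55 (limma adjusted p = 0.0243) after quantile normalization.

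The array spread was 1.76, 1.47, 1.82 and 1.81 in MTO68, with the 2 controls first, and 1.52 to 1.60 in MTO93. The ranges overlapped only through MTO68 control replicate 2, which lay below every MTO93 tumour, while the other MTO68 tumours lay above them all. The part of the array spread in these differences was not tested. With the spread as a covariate the median was -0.09 and none of the 46 passed (smallest limma adjusted p = 0.111), with Aurka at -0.73 (SE 0.26) and Prim1 at -0.48 (SE 0.20). After quantile normalization the median was -0.10, with 27 lower and 19 higher, and 9 genes passed, 6 of them among the 13. In control tumours alone none passed. The share of all genes passing under each of these settings is not reported here. The count also rested on single tumours, with 4 called without MTO68 control replicate 1, 22 without MTO68 control replicate 2, 6 without MTO68 galunisertib replicate 2, 4 without MTO93 control replicate 2, and 6 or 5 without MTO93 galunisertib replicate 1 or 2. MTO68 control replicate 2 was the MTO68 tumour of lowest score, lowest array spread and lowest epithelial level (9.11).

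**Figure D5:**
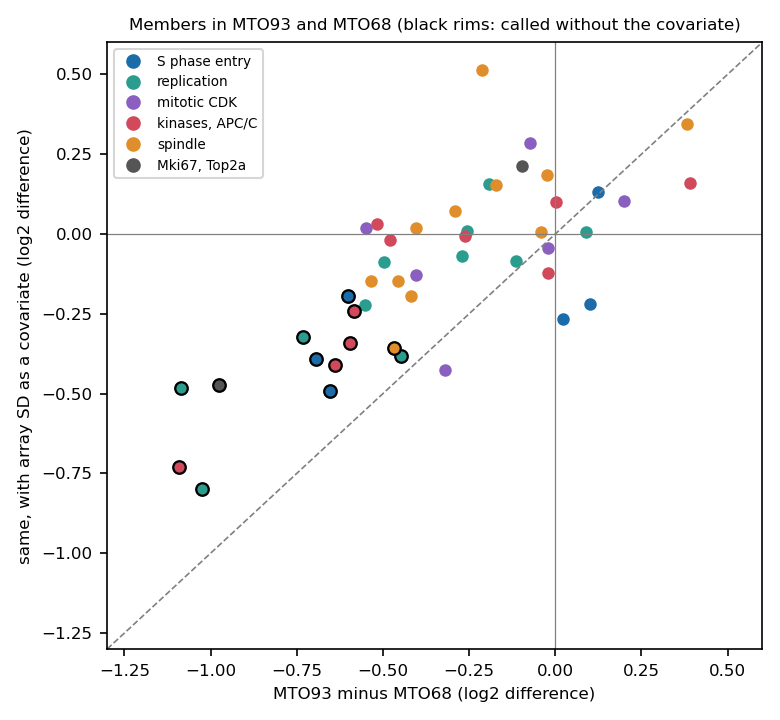
Difference between MTO93 and MTO68 for the 46 genes (log2), without a covariate on the horizontal axis and with the array spread as a covariate on the vertical axis, with black rims on the 13 genes called without it. Most points lie above the dashed line of equality, with Aurka moving from -1.09 to -0.73 and Prim1 from -1.09 to -0.48.

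Other genes of the same pathway were taken from lists. Over the 5 lines 0 of 16 genes of the G1 cyclin, CDK and RB-E2F system, 0 of 7 CDK inhibitor genes, 0 of 27 further replication genes and 0 of 43 further mitosis genes passed limma's test for galunisertib, with 1, 0, 2 and 2 at an unadjusted p under 0.05. Medians were 0.08, 0.06, 0.12 and 0.13. The genes of smallest p were Ccnd3, a D-type cyclin, at 0.24 (SE 0.10) and E2f4 at -0.09 (SE 0.06), then Rfc3 and Rpa1 of the replication fork at 0.32 (SE 0.14) and 0.31 (SE 0.14), and Ncaph of condensin and Incenp of the passenger complex at 0.19 (SE 0.07) and 0.25 (SE 0.11). Ccnd1 stood at 0.17 (SE 0.15) and Myc at 0.15 (SE 0.29). In MTO68 alone Gmnn, which encodes the licensing inhibitor geminin, rose by 1.29 (SE 0.26, limma adjusted p = 0.0249) and Pold2, a DNA polymerase delta subunit, by 1.12 (SE 0.27, limma adjusted p = 0.0495). Gmnn passed in 23 of 30 alternatives and Pold2 in 6, and neither did with the array spread as a covariate, nor without MTO68 control replicate 2 or either treated MTO68 tumour. With that covariate Gmnn stood at 0.77 and Pold2 at 0.56. Pold2 was also lost without any single MTO93, MTO54 or MTO207 tumour or either treated MTO140 tumour.

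Between lines 5 of 16, 5 of 7, 13 of 27 and 11 of 43 genes of these lists passed, against the 55.4% of all genes. Among the CDK inhibitors Cdkn1c, which encodes p57, was 7.17, 6.54, 7.57 and 6.95 in MTO68, with the controls first, and between 4.65 and 5.63 in all 16 tumours of the other lines. It fell by 2.19 from MTO68 to MTO93 (SE 0.21, limma adjusted p = 1.93e-05) and passed in 31 of 31 alternatives. Cdkn1a, which encodes p21, averaged 10.11 ± 0.41 (SD, n = 4) in MTO140 and was higher there by 1.24 than in the parental LAKTP lines (SE 0.28, limma adjusted p = 0.0114). Cdkn2a, the INK4A and ARF gene, averaged 4.43 ± 0.06 (SD, n = 4) in MTO207, a level near the filter of 4.16. It was lower there by a difference of -1.16 (SE 0.16, limma adjusted p = 0.0017). These passed in 26 and 30 of 31 alternatives, and Cdkn1a was lost without MTO140 control replicate 1 or galunisertib replicate 2 (adjusted p from 3.38e-04 to 0.599). Cdkn1a was 0.34 with the epithelial covariate, 0.89 with the array spread as a covariate and 1.16 in control tumours alone, each without a call. Cdkn2a was lost in control tumours alone, at -1.01.

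Cdkn2b, which encodes p15, was higher in MTO54 by 0.83 (SE 0.23, limma adjusted p = 0.0455) and stood at -0.83 in MTO207 (SE 0.23, limma adjusted p = 0.0405). These passed in 15 and 17 of 31 alternatives, and both were lost without any single MTO93 or MTO207 tumour or either treated MTO68 tumour. The MTO54 call was also lost without MTO54 control replicate 1, MTO54 galunisertib replicate 2 or either treated MTO140 tumour, and the MTO207 call without MTO68 control replicate 1. The MTO207 difference was -0.35 with the array spread as a covariate, -0.68 with the epithelial covariate and -0.67 in control tumours, each without a call, and that of MTO54 was lost after median centring (0.85) and in control tumours (0.97). With galunisertib it stood at -0.13 (SE 0.16), Cdkn1a at 0.08 (SE 0.22), Cdkn2a at 0.06 (SE 0.13), Cdkn1b, which encodes p27, at 0.30 (SE 0.19) and Cdkn1c at 0.19 (SE 0.14), and none of these passed. Cdk6, the G1 kinase, was higher in MTO140 by 0.80 (SE 0.16, limma adjusted p = 0.00635), in MTO54 by 0.77 (SE 0.16, limma adjusted p = 0.0129) and in MTO93 than in MTO68 by 0.70 (SE 0.19, limma adjusted p = 0.0146). Omitting MTO54 control replicate 1 or either treated MTO54 tumour ended the MTO54 call, and omitting MTO93 galunisertib replicate 2 ended that of MTO93. These Cdk6 calls passed in 29, 26 and 27 of 31 alternatives. All were lost in control tumours alone, that of MTO140 with the epithelial covariate (0.65) and that of MTO54 with the probe set of largest SD (0.82). Cdk6 in MTO93 against MTO68 was 0.32 with the probe set of largest SD and 0.52 with the mean of probe sets, both without a call, and 1.07 after quantile normalization.

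Of the 46 genes 25 had 2 or more probe sets past the filter. The sign of the galunisertib difference depended on the probe set in 10 of these and that of MTO93 against MTO68 in 9. Both Rrm2 probe sets had the same sign in both comparisons (0.36 and 0.42 with galunisertib, -0.50 and -0.55 between the lines). Cenpa, the centromeric histone, had 0.26 and -0.12 with galunisertib, and Tyms, the thymidylate synthase, ranged from -0.26 to 1.07 between MTO93 and MTO68 over its 5 probe sets.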

How the data were processed

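The authors' deposited values are log2 expression values, 1 per probe set. RMA and affy are named, without versions, in the submitters' processing notes. RMA includes a background correction and a quantile normalization, which forces arrays towards 1 distribution of probe values. The deposited probe set values nevertheless differed between arrays, with an SD from 1.46 to 1.83. LY, as the treatment label has it, was taken to mean galunisertib. The number of arrays (20, with 2 per group) limits the precision. The design text calls the tumours of a group biological replicates.

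The table holds 45141 probe sets, of which 28898 had 1 symbol in the platform's annotation, 551 several, and 104 were controls. Current symbols were found by Entrez ID for 28689. The probe set of highest mean stood for each of 17097 genes. A gene entered the tests if 2 or more arrays exceeded 4.16 (log2), the 25th percentile of the table, which left 15556. The genes and lists were chosen with earlier results of these data known.

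Tests used limma 3.58.1 under R 4.3.3, with eBayes and a trend, were two-sided, and were adjusted by Benjamini-Hochberg over the 15556 genes, with calls at 0.05. The galunisertib effect over 5 lines had the line as a block. Other comparisons came from a model with a mean for each of 10 groups and a shared spread. Scores got no test. The models were tested on simulated data. The genes examined by tumour were a fixed set (Mki67, Top2a, Cdk1, Rrm2, Pcna, E2f1, Ccne1) and those of smallest p in each comparison. For E2f1, Ccne1 and Tpx2 only differences are printed. Pathway genes were named by smallest p or as a fixed set (Ccnd1, Myc, Cdkn1a, Cdkn1b, Cdkn2a, Cdkn2b). Further genes were named after their values were seen. Alternatives changed the filter, the probe set, the normalization, the model and its covariates, and left out each array and line. Counts of calls under alternatives are given without the share of all genes. They do not show whether the listed genes moved more than the rest. Promoter motifs were matched on both strands. Plots were drawn with matplotlib 3.10.9.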

Additional observations from a re-analysis of the deposited data

Results flagged for a closer look

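Single tumours stood apart in 4 of the 112 sets of tumours checked over the 15 genes examined by tumour, where chance gives about 1 in 20. Mki67 was 7.163 in MTO54 galunisertib replicate 2, below the next treated tumour at 7.816. Rrm2 was 6.231 in MTO207 control replicate 2, where the next MTO207 tumour had 7.498. Pcna was 9.523 in MTO68 control replicate 2, below the next MTO68 tumour at 10.13. Cdc6 was 4.697 in MTO68 control replicate 1, above the next control tumour at 4.19.

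The 15 genes examined by tumour were also compared within lines. In 2 of the 15, both treated tumours lay above both controls in one line and below them in another. How often this happens among all genes was not counted, and with 2 tumours per group it can arise by chance. Ccne1 differed by 0.263 in MTO93 and by -0.177 in MTO207. Tpx2 differed by -0.258 in MTO68 and by 0.456 in MTO207. The difference between these pairs of lines was not tested, and the test over all 5 lines called neither gene.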

How the results depend on the processing

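No paired analysis was possible because the labels give the tumours no shared replicate numbers. Galunisertib over 5 lines called 0 of 46 genes in all 37 alternatives, with a median from 0.008 to 0.181. Below the threshold, Top2a reversed with the epithelial covariate (-0.128), Cdk1 with quantile normalization (-0.034) and the epithelial covariate (-0.076), and Ccne1 with quantile normalization (-0.041) and without line MTO93 (-0.019). E2f1 reversed with the mean of probe sets (0.049), median centring (0.016), the array SD covariate (0.059), the epithelial covariate (0.102) and without line MTO68 (0.026). Further reversals were Foxm1 with the probe set of largest SD (0.009), Mybl2 with the mean of probe sets (0.002), either covariate (0.015) and without line MTO68 (0.036) or MTO207 (0.044), and Cdc20 (-0.036) and Cdkn1b (-0.039) with the epithelial covariate. Incenp reversed with the probe set of largest SD (-0.003), Cdkn1c with array weights (-0.001), Myc with the array SD (-0.109) and epithelial (-0.289) covariates and without line MTO68 (-0.034) or MTO207 (-0.008), and Cdkn2a with the same covariates (-0.073 and -0.122) and without line MTO68 (-0.093). Cdkn1a reversed with quantile normalization (-0.049), array weights (-0.213), the array SD (-0.1) and epithelial (-0.365) covariates and without line MTO68 (-0.067) or MTO207 (-0.021). Leaving out 1 tumour gave -0.049 to 0.047 for E2f1, -0.003 to 0.074 for Ccne1, -0.131 to 0.001 for Mybl2, -0.067 to 0.349 for Myc, -0.09 to 0.191 for Cdkn1a and -0.043 to 0.115 for Cdkn2a.

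In MTO68 the median was -0.013 with quantile normalization and -0.026 with the array SD covariate. Leaving out 1 tumour gave medians from 0.082 to 0.489 and 0 to 7 calls in MTO68, and medians from -0.128 to 0.42 in MTO140. Median centring moved the median of all genes in MTO68 from 0.037 to 0.129 and that of the 46 genes from 0.248 to 0.34.

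Calls between lines numbered 17, and 11 with array weights, 10 with the array SD covariate and 1 in control tumours alone, with 10 to 23 on leaving out 1 tumour. MTO140 against the parental LAKTP lines gave 1, and 2 with the mean of probe sets, 4 with quantile normalization, 2 with the array SD covariate, 0 with the epithelial covariate and 0 in control tumours, with 1 to 4 on leaving out 1 tumour. MTO54 gave 1, and 0 with median centring, 8 with the array SD covariate, 4 with the epithelial covariate and 0 in control tumours, with 0 to 3 on leaving out 1 tumour. MTO207 gave 1, and 2 with the stricter filter, 3 with array weights and 0 with the probe set of largest SD, median centring, the array SD covariate, the epithelial covariate or control tumours, with 0 to 5 on leaving out 1 tumour. MTO93 against MTO68 gave 13, and 6 with array weights and 0 with the array SD covariate or in control tumours, with 4 to 22 on leaving out 1 tumour. Its median was -0.104 with quantile normalization and -0.085 with the array SD covariate. Mki67 reversed there with quantile normalization (0.308), the array SD covariate (0.212) and in control tumours (0.135), and ranged from -0.24 to 0.047 on leaving out 1 tumour. Control tumours alone hold fewer samples, and for the other settings the cause was not tested. A group left with 1 tumour was assumed to vary like the other groups.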
